A study of Drosophila melanogaster with 8 samples.

Results

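The Dpr, DIP, Beat and Side proteins are cell surface and secreted members of the immunoglobulin superfamily, and their genes were compared between a pair of Drosophila melanogaster cell lines. The members were the genes whose symbol is dpr followed by a number or begins with DIP-, beat- or side. The rule found 54 of the 17730 genes in the tables, namely 21 Dpr, 11 DIP, 14 Beat and 8 Side genes. Polyadenylated RNA was sequenced from 4 culture flasks of ML-DmD17-c3 (D17-c3), a line derived from imaginal discs, and from 4 flasks of S2-DRSC, a stock of the embryonic line S2 with features of hemocytes, the blood cells of the fly. No treatment or genetic change is given for either line in the labels. Each line is represented by 1 stock, so a difference between the lines cannot be told apart from a difference between these stocks.

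In the nervous system, Dprs on the surface of some neurons bind DIPs on the surface of others, each DIP binding a restricted subset of Dprs. These contacts bear on synaptic partner choice, layer targeting and survival of neurons. Beat proteins act in the same way with Side proteins. The founding pair guides motor axons in the embryo, where Side lies on the tissue along the path and Beat-Ia acts in the growing axon. Many Dprs and DIPs are held on the membrane by a glycosylphosphatidylinositol (GPI) anchor. The families are mostly studied in neurons, and cultured lines offer cells of other origin in which the same genes can be counted.

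Total expected counts ran from 76822525 to 91074700 in D17-c3 libraries and from 83612326 to 110163700 in S2-DRSC libraries. The imaginal disc markers fitted the label of D17-c3 in part. Of 8, 6 were at 1 TPM (a transcript level scaled by transcript length and library total) or more in D17-c3 and 3 in S2-DRSC, with summed levels of 278 to 363 TPM in D17-c3 and 81.9 to 98.9 TPM in S2-DRSC, and the wing genes vg and nub had means under 1 TPM in both. The disc marker crb ran against that sum, with 3.12 to 4.5 TPM in D17-c3 libraries and 9.19 to 13.19 TPM in S2-DRSC libraries. All 6 hemocyte markers were at a mean of 1 TPM or more in either line. NimC1 reached it in D17-c3 only through replicate 2 (0.92, 3.57, 0.66 and 0.56 TPM in replicates 1 to 4). The sum of the hemocyte markers was 183 to 282 TPM in D17-c3 against 676 to 752 TPM in S2-DRSC. The gap came mostly from Hml (30.6 ± 9.60 TPM in D17-c3 and 310 ± 15.8 TPM in S2-DRSC) and Pxn (10.4 ± 1.41 TPM in D17-c3 and 225 ± 38.3 TPM in S2-DRSC). The marker eater was also lower in D17-c3 (33.4 ± 9.38 TPM in D17-c3 and 50.2 ± 1.03 TPM in S2-DRSC). In contrast, srp was at 138 ± 21.6 TPM in D17-c3 and 94.4 ± 3.48 TPM in S2-DRSC. The ranges of He and NimC1 overlapped between D17-c3 and S2-DRSC only through D17-c3 replicate 2. For both genes the other D17-c3 libraries lay below every S2-DRSC library. The library least like its own line was D17-c3 replicate 2, with a mean correlation of log2 counts of 0.979 to the others, and it had the lowest disc sum of its line. Its hemocyte sum was the highest of its line through He and eater (47.0 TPM, against 26.1 to 31.5 TPM of eater in the other D17-c3 libraries). Its Hml (16.3 TPM) and Pxn (8.99 TPM) were the lowest. Of the 10 neuron markers, 3 reached 1 TPM in D17-c3 and 2 in S2-DRSC, with summed levels of 15.6 to 19.6 TPM in D17-c3 and 20.8 to 22.6 TPM in S2-DRSC. The RNA-binding protein gene elav made up most of that sum (10.6 ± 1.02 TPM in D17-c3 and 12.8 ± 0.842 TPM in S2-DRSC), and VAChT had at most 3 counts in any library. Among the rest, the synaptic gene brp was at 0.212 ± 0.0665 TPM in D17-c3 and 7.75 ± 0.291 TPM in S2-DRSC, while fne (3.83 ± 0.492 TPM in D17-c3 and 0.0875 ± 0.015 TPM in S2-DRSC) and Rbp9 (2.83 ± 0.273 TPM in D17-c3 and 0.618 ± 0.0512 TPM in S2-DRSC) had the opposite order. The synaptic genes nSyb and Syt1, and para, VGlut and Gad1, were under 1 TPM in every library. The 6 glia markers summed to 94.5 to 174 TPM in D17-c3 and 46.1 to 52.8 TPM in S2-DRSC, with repo, the defining glial factor, at 0.107 ± 0.045 TPM in D17-c3 and 0.03 ± 0.0115 TPM in S2-DRSC. The glia sum in D17-c3 was mostly nrv2 (124 ± 32.1 TPM in D17-c3 and 17.5 ± 0.434 TPM in S2-DRSC), while moody (6.63 ± 1.72 TPM in D17-c3 and 31.5 ± 3.08 TPM in S2-DRSC) and Gat (0.27 ± 0.0821 TPM in D17-c3 and 0.86 ± 0.0744 TPM in S2-DRSC) had the opposite order. The 5 muscle markers summed to 14.3 to 27.2 TPM in D17-c3 and 17.6 to 19.8 TPM in S2-DRSC, mostly from Mef2. The part of other cell types in the results below was not tested. In bulk RNA, fewer expressing cells and less RNA per cell cannot be told apart.

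Most members were at low levels, with 46 of 54 under a mean of 1 TPM in both lines and 25 of these under 0.1 TPM in both. D17-c3 expressed DIP-epsilon, DIP-alpha and side-V at more than 10 TPM and dpr14, DIP-beta, dpr18 and beat-IIIc at 1 TPM or more. In S2-DRSC, DIP-alpha and dpr3 alone reached 1 TPM. That made 7 of 54 members at a mean of 1 TPM or more in D17-c3 (52.5% of all genes reached this level) and 2 of 54 in S2-DRSC (48% of all genes). Means and SDs here and below are over the 4 libraries of a line. Because TPM values are per length, levels can be set beside each other between genes, and they are deposited to 2 decimals.

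The whole set summed to 45.6 to 64.2 TPM in D17-c3 libraries and to 9.85 to 10.5 TPM in S2-DRSC libraries, without overlap. DIP-epsilon, DIP-alpha and side-V together made up 73.4% of the sum in D17-c3. DIP-alpha and dpr3 together made up 56.0% of the sum in S2-DRSC. Among families, DIP genes held the largest sum in each line (32.4 ± 3.64 TPM in D17-c3 and 5.24 ± 0.4 TPM in S2-DRSC). Dpr genes summed to 8.53 ± 1.21 TPM in D17-c3 and 3.42 ± 0.141 TPM in S2-DRSC. Side genes summed to 12.4 ± 3.79 TPM in D17-c3 and 1.13 ± 0.0849 TPM in S2-DRSC. Beat genes were the lowest family, at 2.29 ± 0.429 TPM in D17-c3 and 0.535 ± 0.0387 TPM in S2-DRSC. For each of the 4 families the lowest D17-c3 library lay above the highest S2-DRSC library. For the Side genes this rested on side-V alone (11.7 ± 3.64 TPM in D17-c3 and 0.0575 ± 0.0171 TPM in S2-DRSC). Summed without side-V, the Side genes were not higher in D17-c3.

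**Figure D1:**
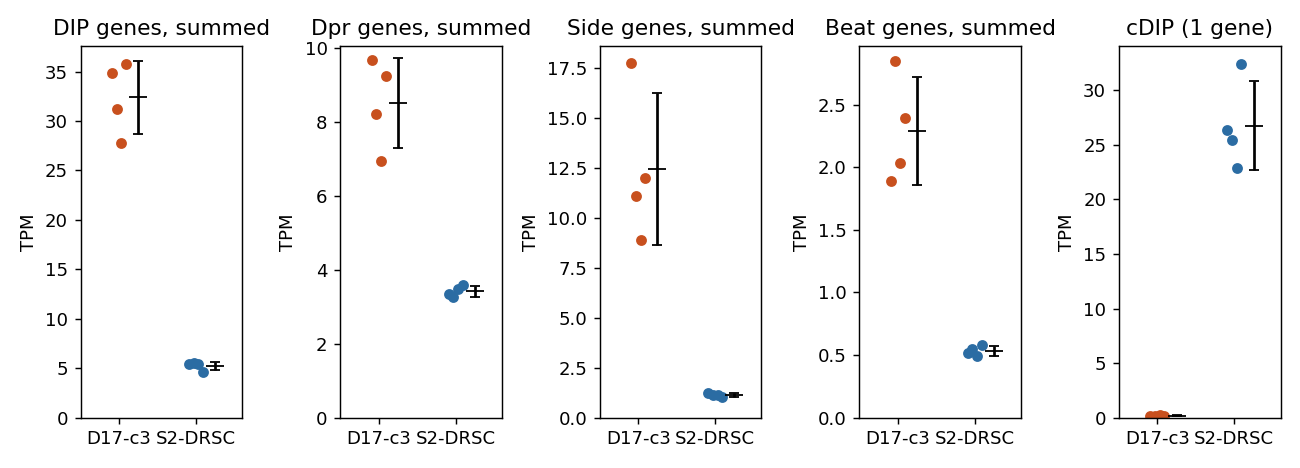
Summed TPM of the DIP, Dpr, Side and Beat genes and TPM of cDIP, a gene outside the families, in each library of D17-c3 (left) and S2-DRSC (right), with points for libraries and bars for the mean ± SD of 4 libraries. The DIP sum averaged 32.4 TPM in D17-c3 and 5.24 TPM in S2-DRSC, and cDIP ran the other way.

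For the comparison between lines, expected counts were tested for all genes together with edgeR's quasi-likelihood test, with a threshold of 0.05 on the Benjamini-Hochberg adjusted p. Of 11606 genes that passed the filter on low counts, 75.2% were called, 39.1% as higher in D17-c3 and 36.1% as higher in S2-DRSC. Of the 54 members 30 passed the filter and 24 of those were called, a share of 80% that lies near this background. By direction, 21 were higher in D17-c3, and the 3 that were higher in S2-DRSC were dpr3, side-III and beat-IIa. In addition, 6 tested members had no call. The fitted fold change of each of these 24 was 2 or more in its direction, as it was for 25.6% of all tested genes toward D17-c3 and for 17.4% toward S2-DRSC. By replicate libraries, 20 members had all D17-c3 values above all S2-DRSC values (37.1% of all tested genes) and 3 had the reverse (34.5%). These values were counts scaled by library total and TMM factor. The median log2 fold change was 2.07 over the tested members and 0.04 over all tested genes. A member that was low in one line was tested only where its counts in the other line passed the filter, so these counts describe the expressed members and not the families as a whole. All 24 calls kept their direction and their side of the threshold in each of the 16 alternative analyses in which the member had a value.

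**Figure D2:**
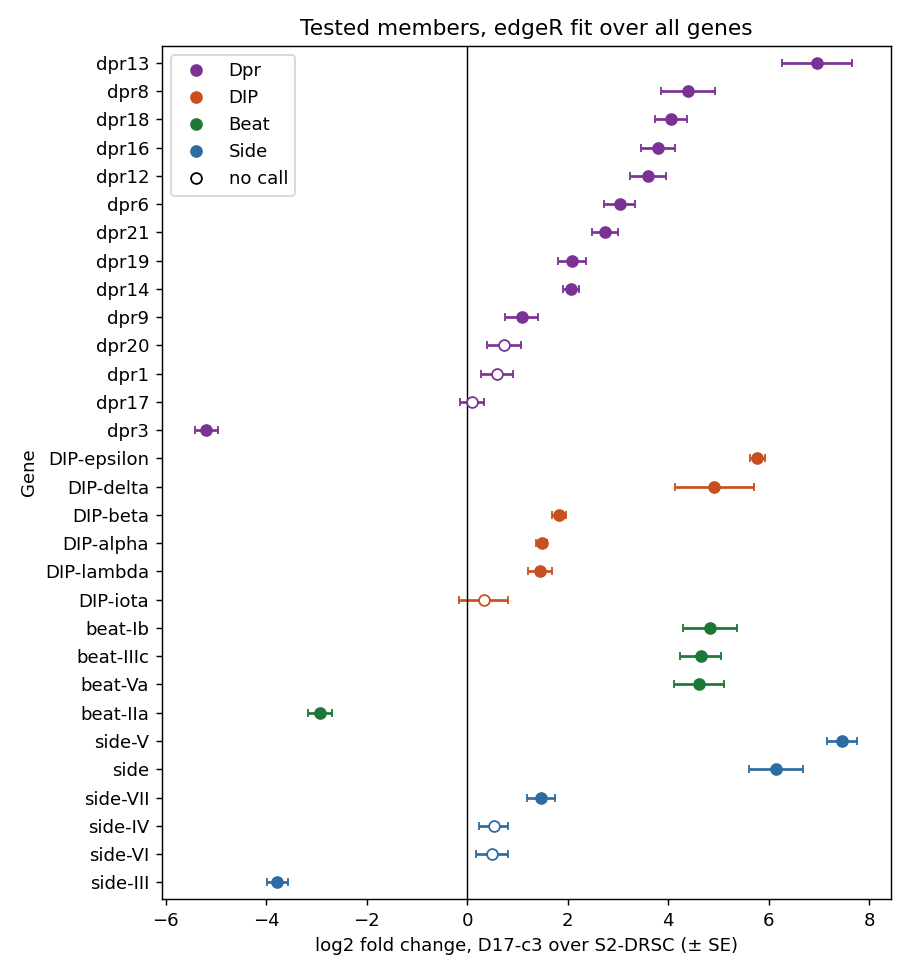
Fitted log2 fold change of D17-c3 over S2-DRSC, with its SE, for the 30 tested members, grouped by family (colours), with open points for members with no call. Values ran from -5.19 for dpr3 to 7.46 for side-V.

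Among the DIP genes, 6 passed the filter, of which 5 were higher in D17-c3 and none was higher in S2-DRSC. DIP-epsilon (2L, 6377771 to 6411326, minus strand) was the most abundant member of all in D17-c3. It had 16.7, 16.2, 13.7 and 18.0 TPM in D17-c3 replicates 1 to 4 and 0.24, 0.25, 0.31 and 0.19 TPM in S2-DRSC replicates 1 to 4. Every D17-c3 library was far above every S2-DRSC library, and the log2 fold change was 5.77 ± 0.14 (SE, edgeR adjusted p = 1.61e-09).

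DIP-alpha, a receptor that binds Dpr6 and Dpr10 and takes part in the wiring of motor neurons and of the visual system, was the only member above 1 TPM in both lines. DIP-alpha (X, 3507245 to 3571649, minus strand) had 14.8, 11.6, 11.5 and 14.3 TPM in D17-c3 and 4.22, 4.06, 4.07 and 3.65 TPM in S2-DRSC. The lines did not overlap, with a log2 fold change of 1.48 ± 0.10 (edgeR adjusted p = 1.08e-06). Its annotated exons share 158 bases with CG2875 on the same strand and 106 bases with ppk8 on the opposite strand, so some of its reads may be shared. CG2875 stood at 33.9 ± 1.82 TPM in D17-c3 and 67.3 ± 1.31 TPM in S2-DRSC, the opposite order.

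DIP-beta (X, 21422115 to 21457738, minus strand), whose product binds several Dprs, had 2.21, 1.92, 1.78 and 2.25 TPM in D17-c3 and 0.49, 0.62, 0.65 and 0.5 TPM in S2-DRSC. It was again higher in every D17-c3 library (log2 fold change 1.83 ± 0.14). The transcript length that the authors' tables weight by estimated isoform use also differed for DIP-beta, which has 5 transcripts in the tables. It was 4032 ± 34.6 bases in D17-c3 and 3479 ± 97.1 bases in S2-DRSC (two-sided exact permutation p = 0.0286, the smallest that 70 splits can give, higher in 4 of 4 D17-c3 libraries). Adjusted over the 5 members at 1 TPM or more whose length varied, that p was 0.143 and did not pass. dpr14, beat-IIIc, DIP-alpha and dpr3 gave exact permutation p-values of 0.0857 to 1. These isoform weights are estimates and rest on 114 to 173 counts of DIP-beta per S2-DRSC library.

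Other DIP genes were below 1 TPM. DIP-lambda averaged 0.42 ± 0.0748 TPM in D17-c3 and 0.128 ± 0.0222 TPM in S2-DRSC (log2 fold change 1.45 ± 0.24). DIP-delta, the receptor for Dpr12, had 0.35, 0.07, 0.19 and 0.2 TPM in D17-c3 and 0.04, 0.01, 0 and 0 TPM in S2-DRSC, where its counts summed to 7 (log2 fold change 4.92 ± 0.79). DIP-iota had no call (edgeR adjusted p = 0.556), with 0.18, 0.88, 0.19 and 0.32 TPM in D17-c3 and 0.23, 0.37, 0.25 and 0.15 TPM in S2-DRSC. Its highest value belonged to D17-c3 replicate 2, and without that library its log2 fold change was -0.36. The same library had 57.9 TPM of the hemocyte gene He against 6.63 to 9.77 TPM in the other D17-c3 libraries, and whether the 2 are linked was not tested. DIP-eta, DIP-gamma, DIP-kappa, DIP-theta and DIP-zeta were not tested and stayed at or under a mean of 0.0625 TPM in either line. DIP-zeta had 51 counts in D17-c3 and 2 counts in S2-DRSC, and the ratio of sums was 25.9 with a 95% counting interval of 6.81 to 220.

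Among the Dpr genes, 14 passed the filter, of which 10 were higher in D17-c3 and 1, dpr3, was higher in S2-DRSC. dpr14 (X, 7903704 to 7908286, minus strand) was the most abundant Dpr gene in D17-c3. It had 3.06, 2.91, 2.21 and 3.45 TPM in D17-c3 and 0.46, 0.54, 0.58 and 0.61 TPM in S2-DRSC. All D17-c3 libraries exceeded all S2-DRSC libraries (log2 fold change 2.06 ± 0.15, edgeR adjusted p = 1.47e-06). dpr18 (X, 16063738 to 16070304, plus strand) had 2.07, 1.22, 1.5 and 1.81 TPM in D17-c3 and 0.05, 0.11, 0.07 and 0.1 TPM in S2-DRSC. It was near silence in S2-DRSC and about as abundant as DIP-beta in D17-c3 (log2 fold change 4.05 ± 0.32).

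dpr3 (2L, 2058790 to 2109878, minus strand) was the exception among the Dpr genes. It had 0.08, 0.06, 0.05 and 0.04 TPM in D17-c3 and 1.9, 1.46, 1.81 and 1.94 TPM in S2-DRSC. The lines were far apart, with a log2 fold change of -5.19 ± 0.23 (edgeR adjusted p = 4.78e-08). In S2-DRSC it was the second most abundant member after DIP-alpha.

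dpr13 (2R, 17975122 to 18007902, minus strand) had the largest fitted difference toward D17-c3 among the Dpr genes and lies under 1 TPM. It had 0.49, 0.16, 0.4 and 0.55 TPM in D17-c3 and was listed at 0 TPM in every S2-DRSC library. The sums were 305 counts in D17-c3 and 2 counts in S2-DRSC, a ratio of 155 with a 95% counting interval of 42.5 to 1285. The fitted log2 fold change of 6.96 ± 0.70 depends on how such low counts are treated. D17-c3 replicate 2 was the lowest of its line for dpr13.

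The remaining Dpr genes higher in D17-c3 were dpr21, a binding partner of DIP-beta (0.84 ± 0.152 TPM in D17-c3 and 0.102 ± 0.0299 TPM in S2-DRSC), dpr19, dpr16, dpr12 (the partner of DIP-delta), dpr9, dpr6 (a partner of DIP-alpha) and dpr8. dpr19 had 0.44, 0.89, 0.44 and 0.41 TPM in D17-c3 and 0.12, 0.13, 0.09 and 0.11 TPM in S2-DRSC, with D17-c3 replicate 2 the highest. The log2 fold changes of these 7 ran from 1.08 ± 0.33 for dpr9 to 4.39 ± 0.54 for dpr8. The libraries of dpr9 overlapped, with 0.16 to 0.43 TPM in D17-c3 and 0.09 to 0.17 TPM in S2-DRSC. dpr8 had 51 counts over all D17-c3 libraries and 2 counts over all S2-DRSC libraries, a ratio of 25.9 with a 95% counting interval of 6.81 to 220. dpr16 shares 118 exon bases on the opposite strand with cno, a gene at 59.1 ± 8.24 TPM in D17-c3 and 44.5 ± 4.63 TPM in S2-DRSC, and the strand setting of the counting is not named in the labels.

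No call was made for dpr1, the founding member, named for a defect in the proboscis extension response to salt, nor for dpr17 or dpr20. dpr1 had 0.04 to 0.1 TPM in D17-c3 and 0.03 to 0.05 TPM in S2-DRSC (edgeR adjusted p = 0.121). dpr20 had 0.77, 0.28, 0.5 and 0.42 TPM in D17-c3 and 0.31, 0.27, 0.27 and 0.17 TPM in S2-DRSC (edgeR adjusted p = 0.0716). Both were called higher in D17-c3 without D17-c3 replicate 2 (edgeR adjusted p = 0.0386 for dpr1 and 0.00591 for dpr20), and dpr20 also with library totals in place of TMM scaling. The other 7 Dpr genes were not tested. Among them dpr7 stood at 0.0975 TPM in D17-c3 and 0.122 TPM in S2-DRSC, and dpr2, dpr4, dpr5, dpr10, dpr11 and dpr15 at 0.015 TPM or less in either line.

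**Figure D3:**
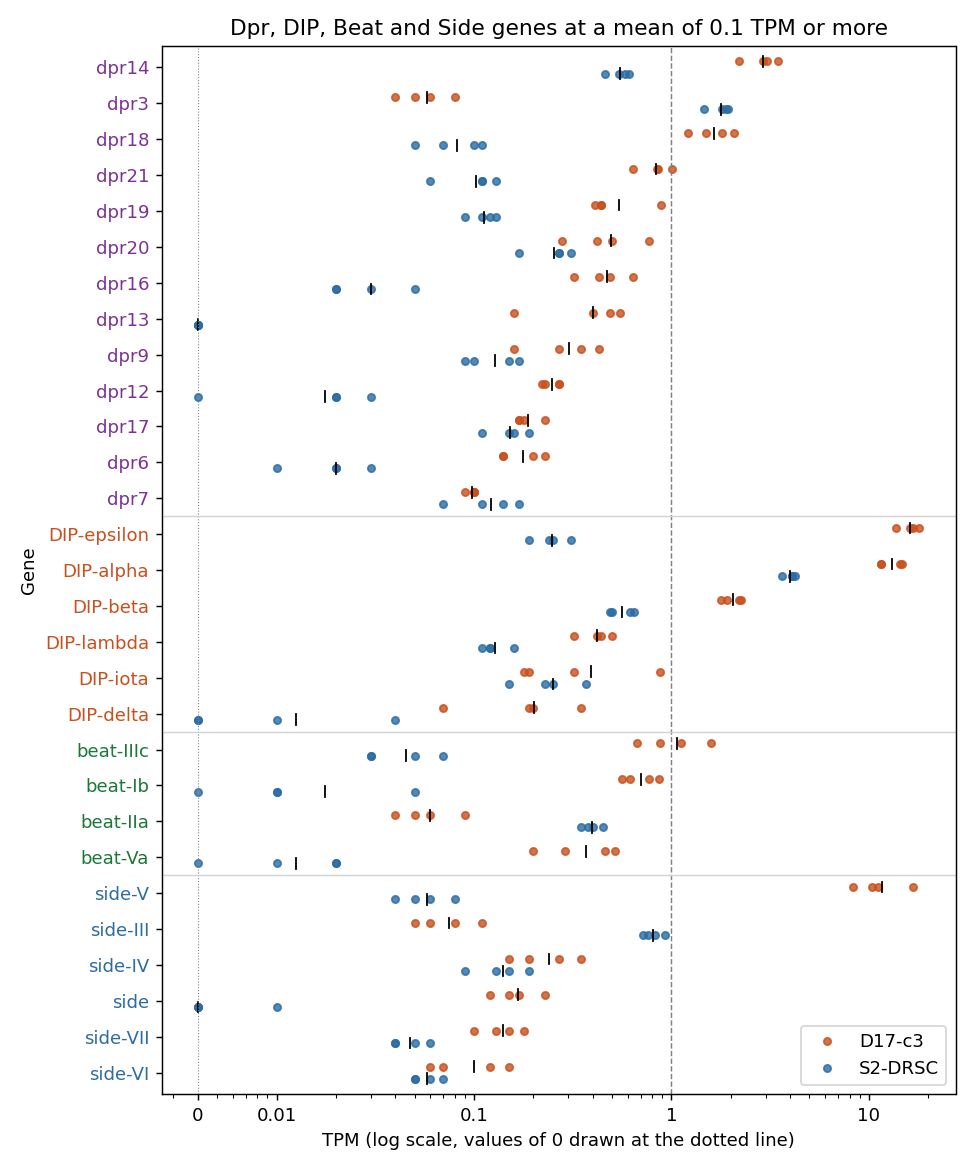
TPM on a log axis in each of 4 D17-c3 libraries (upper point row of a gene) and 4 S2-DRSC libraries (lower row) for the 29 members with a mean of 0.1 TPM or more in at least one line, with means as short black lines, a dashed line at 1 TPM and a dotted line at 0. DIP-epsilon, DIP-alpha and side-V stand apart at more than 10 TPM in D17-c3, and dpr3, side-III and beat-IIa are the members higher in S2-DRSC.

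Beat genes were the least expressed. Of 14, 4 passed the filter, 3 of them were higher in D17-c3 and 1, beat-IIa, was higher in S2-DRSC. beat-IIIc (2L, 17187637 to 17260734, minus strand) was the only one to reach a mean of 1 TPM. It had 0.67, 1.59, 0.88 and 1.12 TPM in D17-c3 and 0.05, 0.03, 0.03 and 0.07 TPM in S2-DRSC. D17-c3 replicate 2 was again the highest library, and without it the D17-c3 mean fell under 1 TPM, leaving 6 members at that level. The log2 fold change of beat-IIIc was 4.65 ± 0.40 (edgeR adjusted p = 4.51e-06).

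beat-Ib averaged 0.705 ± 0.141 TPM in D17-c3 and 0.0175 ± 0.0222 TPM in S2-DRSC (log2 fold change 4.83 ± 0.54). beat-Va averaged 0.367 ± 0.148 TPM in D17-c3 and 0.0125 ± 0.00957 TPM in S2-DRSC, with 9 counts in all S2-DRSC libraries (log2 fold change 4.61 ± 0.49). beat-IIa (3R, 17320004 to 17366119, minus strand) had 0.06, 0.09, 0.04 and 0.05 TPM in D17-c3 and 0.38, 0.45, 0.35 and 0.4 TPM in S2-DRSC. Each S2-DRSC library lay above each D17-c3 library (log2 fold change -2.93 ± 0.24, edgeR adjusted p = 3.14e-06). beat-Ia, the motor axon gene that gave the family its name, had 4 counts over all D17-c3 libraries and 1 count over all S2-DRSC libraries. Of the 14 Beat genes, 9 had at most 3 counts in every D17-c3 library, and likewise 9 in every S2-DRSC library (a group that includes beat-Va). The 10 Beat genes that were not tested had means of at most 0.025 TPM in either line. With no filter on low counts, beat-IV and beat-VI were also called higher in S2-DRSC.

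Of the 8 Side genes, 6 passed the filter, 3 were higher in D17-c3 and 1 was higher in S2-DRSC. side-V (2R, 23163012 to 23203973, minus strand) had the largest fitted fold change of all members. It had 16.8, 10.4, 8.28 and 11.1 TPM in D17-c3 and 0.05, 0.06, 0.04 and 0.08 TPM in S2-DRSC. D17-c3 replicate 1 was the highest, and the lowest D17-c3 library was still far above all S2-DRSC libraries. The log2 fold change was 7.46 ± 0.30 (edgeR adjusted p = 3.11e-08), from 16605 counts in D17-c3 and 94 counts in S2-DRSC.

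side-III (3R, 5862865 to 5959555, minus strand) ran the other way. It had 0.08, 0.06, 0.05 and 0.11 TPM in D17-c3 and 0.93, 0.83, 0.76 and 0.72 TPM in S2-DRSC, with a log2 fold change of -3.78 ± 0.20 (edgeR adjusted p = 1.88e-07). The founding gene side (3R, 27375088 to 27437482, minus strand), the cue on the path of motor axons, had 0.23, 0.12, 0.15 and 0.17 TPM in D17-c3 and 0, 0, 0.01 and 0 TPM in S2-DRSC. Its sums were 242 counts in D17-c3 and 3 counts in S2-DRSC, a ratio of 81.9 with a 95% counting interval of 27.7 to 400.1, beside a fitted log2 fold change of 6.14 ± 0.53. side-VII was at 0.14 ± 0.0337 TPM in D17-c3 and 0.0475 ± 0.00957 TPM in S2-DRSC (log2 fold change 1.47 ± 0.27). side-IV and side-VI had no call (edgeR adjusted p = 0.129 and 0.182), and side-II and side-VIII were not tested. side-IV had means of 0.24 TPM in D17-c3 and 0.14 TPM in S2-DRSC, and side-VI 0.1 TPM in D17-c3 and 0.0575 TPM in S2-DRSC. side-II had 37 counts in D17-c3 (15, 1, 3 and 18 in replicates 1 to 4) and 1 count in S2-DRSC. The ratio was 37.6, with a 95% counting interval of 6.34 to 1524 that leaves out the spread between flasks. D17-c3 replicate 2 had 1 count, no more than S2-DRSC replicate 2, so the libraries overlapped. side-VIII had means of 0.0275 TPM in D17-c3 and 0.015 TPM in S2-DRSC. side-IV shares 2562 and 895 exon bases with a pair of antisense RNA genes, so its counts are uncertain.

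For a pair of partners to meet within a line, both genes have to be expressed there. For 16 pairs taken from published binding studies of the Drosophila proteins, mean levels of both genes were set side by side. Neither line had both partners of any of the 16 pairs at 1 TPM or more. At 0.1 TPM or more for both partners there were 4 pairs in D17-c3 and 2 pairs in S2-DRSC. In D17-c3 these were DIP-alpha with dpr6, DIP-beta with dpr21, DIP-delta with dpr12 and side-VI with beat-Va. In S2-DRSC they were DIP-beta with dpr21 and side-IV with beat-IIa. Some of these lie at the threshold. dpr21 had 0.11, 0.13, 0.06 and 0.11 TPM in S2-DRSC, and without S2-DRSC replicate 2 the count there was 1 pair. side-VI had 0.12, 0.15, 0.07 and 0.06 TPM in D17-c3, a mean of 0.1 TPM, and without D17-c3 replicate 1 or replicate 2 the count there was 3 pairs. The partners of DIP-alpha were at far lower levels than DIP-alpha. dpr6 was at 0.177 ± 0.045 TPM in D17-c3 and 0.02 ± 0.00816 TPM in S2-DRSC, and dpr10 at 0.0125 TPM in D17-c3 and 0.0025 TPM in S2-DRSC. DIP-alpha itself averaged 13.0 TPM in D17-c3 and 4.00 TPM in S2-DRSC. DIP-beta and dpr21 in D17-c3 came closest, at 2.04 and 0.84 TPM. These pairs are a part of the known binding partners. DIP-epsilon, side-V, dpr14, dpr18 and beat-IIIc, each at 1 TPM or more in D17-c3, are in none of them. The same is true of dpr3, at 1 TPM or more in S2-DRSC. The absence of a pair at 1 TPM or more thus holds for the listed pairs and not for the families.

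**Figure D4:**
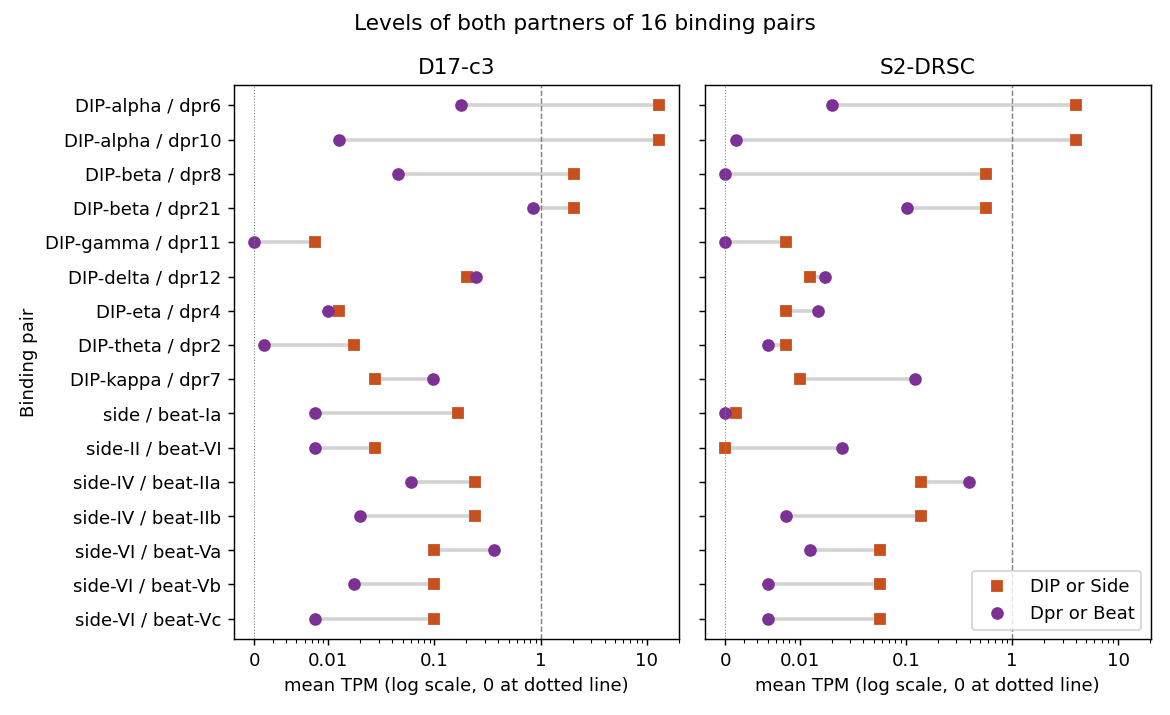
Mean TPM over 4 libraries, on a log axis, of the DIP or Side partner (squares) and the Dpr or Beat partner (circles) of 16 binding pairs in D17-c3 (left) and S2-DRSC (right). The dashed line is at 1 TPM, and none of these 16 pairs has both symbols to its right.

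The secreted protein cDIP, which binds many Dprs and DIPs in binding screens of Drosophila proteins, showed the reverse of the families. The cDIP gene (3R, 21159238 to 21161092, minus strand) had 0.17, 0.14, 0.22 and 0.13 TPM in D17-c3 and 26.4, 25.4, 22.9 and 32.5 TPM in S2-DRSC. In S2-DRSC it exceeded the sum of all 54 members in each library, and in D17-c3 it was near silence. The log2 fold change was -7.56 ± 0.24 (edgeR adjusted p = 6.28e-09).

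The members are long genes, and some lie close to another member. Their annotated span had a median of 36154.5 bases, against 2163 bases over 13865 protein-coding genes, and 21 lie on 3R, 16 on 2L, 7 on 2R, 5 on X, 4 on 3L and 1 on chromosome 4. Members close to each other had unlike levels in some cases and like levels in others. beat-Ib stood at 0.705 TPM in D17-c3, while beat-Ic, 37855 bases away, and beat-Ia both stood at 0.0075 TPM. beat-Va had 0.367 TPM in D17-c3, while beat-Vc and beat-Vb, 57343 and 67636 bases away, had 0.0075 and 0.0175 TPM. dpr6 and dpr10 have no protein-coding gene between them and a gap of 8093 bases, and had 0.177 and 0.0125 TPM in D17-c3. DIP-eta and DIP-theta, with 1 protein-coding gene in the gap of 8344 bases between them, were both at 0.0175 TPM or less in each line.

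The nearest protein-coding genes on either side of the leading members did not share a single pattern. Next to DIP-epsilon, slam had 10.3 ± 1.55 TPM in D17-c3 and 6.92 ± 1.43 TPM in S2-DRSC, and CG13982 had 2.14 ± 0.176 TPM in D17-c3 and 2.89 ± 0.354 TPM in S2-DRSC. Next to side-V, CG9899 had 0.245 ± 0.0289 TPM in D17-c3 and was listed at 0 in S2-DRSC, and LS2 had 0.242 ± 0.0737 TPM in D17-c3 and 0.0275 ± 0.0171 TPM in S2-DRSC. Next to dpr13, CG5084 had 5.25 ± 0.588 TPM in D17-c3 and 0.015 ± 0.0191 TPM in S2-DRSC, the same order as dpr13. Next to dpr3, Or22c at 823 bases had 0.168 ± 0.0222 TPM in D17-c3 and 0.0725 ± 0.0222 TPM in S2-DRSC, the opposite order to dpr3. On the other side, at 17431 bases, CG4259 had 0.15 ± 0.0356 TPM in D17-c3 and 28.1 ± 4.07 TPM in S2-DRSC, the order of the member. dpr14 lies 61 bases from bys, which had 35.1 ± 3.84 TPM in D17-c3 and 49.6 ± 2.59 TPM in S2-DRSC, the opposite order. These neighbours are given as levels and their differences were not tested here.

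Among 37 other immunoglobulin adhesion genes, 35 passed the filter. Of these 22 were higher in D17-c3, 7 were higher in S2-DRSC and 6 had no call. At 1 TPM or more stood 25 of the 37 in D17-c3 and 23 of the 37 in S2-DRSC. Their share called was 82.9%, near the 75.2% of all tested genes. The median log2 fold change was 0.82. babos (807 ± 142 TPM in D17-c3 and 3.76 ± 0.269 TPM in S2-DRSC, log2 fold change 7.52 ± 0.23) and Dscam4 (32.3 ± 4.97 TPM in D17-c3 and 0.21 ± 0.0408 TPM in S2-DRSC, log2 fold change 6.95 ± 0.18) led toward D17-c3. The leading genes toward S2-DRSC were klg, an adhesion gene of photoreceptors and other neurons (0.07 ± 0.0271 TPM in D17-c3 and 8.16 ± 0.473 TPM in S2-DRSC, log2 fold change -7.15 ± 0.20), and the Netrin receptor gene unc-5 (15.4 ± 2.19 TPM in D17-c3 and 70.7 ± 5.03 TPM in S2-DRSC, log2 fold change -2.44 ± 0.09). Fas2, a homophilic adhesion gene of axon bundles whose action Beat-Ia opposes in motor axons, was at 5.09 ± 0.798 TPM in D17-c3 and 2.67 ± 0.517 TPM in S2-DRSC (log2 fold change 0.80 ± 0.15).

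**Figure D5:**
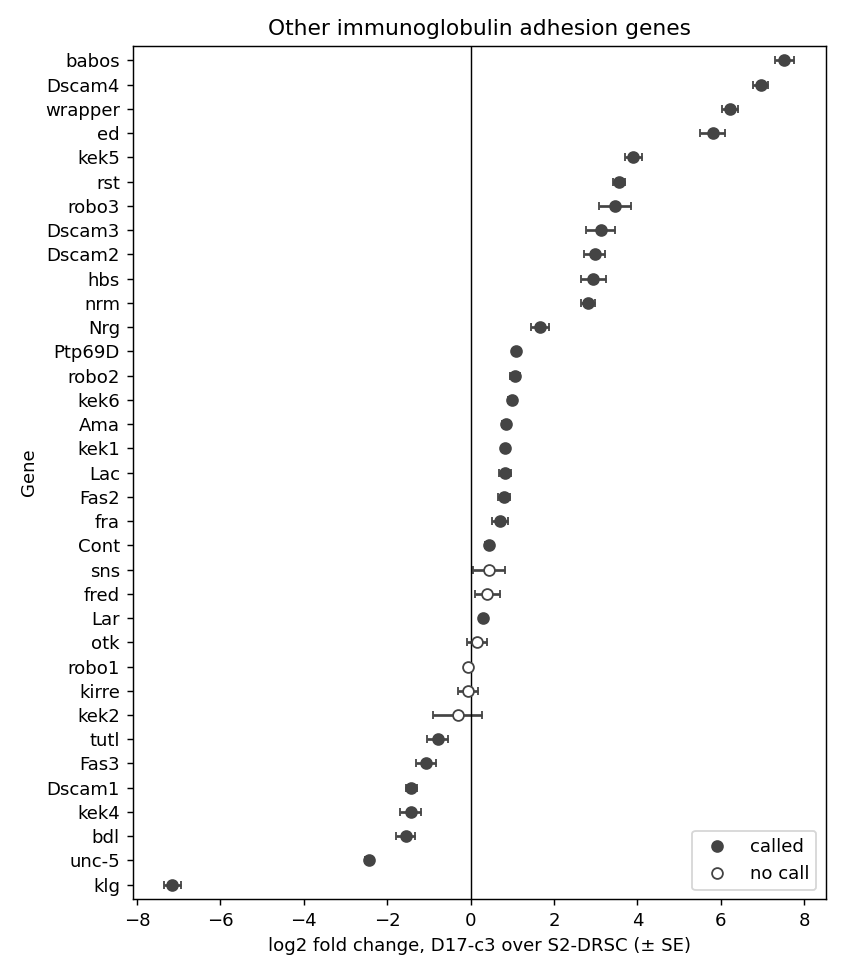
Fitted log2 fold change of D17-c3 over S2-DRSC, with its SE, for the 35 tested genes of the list of other immunoglobulin adhesion genes, with open points for genes with no call. Values ran from -7.15 for klg to 7.52 for babos.

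The genes of GPI anchor synthesis were expressed in both lines. All 24 found in the tables were at 1 TPM or more in each line, and their sum was 671 to 741 TPM in D17-c3 and 477 to 511 TPM in S2-DRSC. Of the 24 tested, 10 were higher in D17-c3, 4 were higher in S2-DRSC and 10 had no call, a called share of 58.3% against 75.2% of all tested genes. PIG-T (log2 fold change 1.42 ± 0.10, 56.1 ± 7.27 TPM in D17-c3 and 17.7 ± 0.945 TPM in S2-DRSC) and PGAP5 (1.28 ± 0.08) led toward D17-c3. PGAP3 (-0.85 ± 0.08, 17.9 ± 1.66 TPM in D17-c3 and 27.2 ± 1.03 TPM in S2-DRSC) and PGAP2 (-0.69 ± 0.13) led toward S2-DRSC.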

How the data were processed

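Polyadenylated RNA of 4 culture flasks per line was sequenced with a stranded kit, per the labels' protocols. For every library the authors deposited a gene table holding expected counts, TPM, FPKM and transcript lengths, per the file headers. Tools listed in the submitters' processing notes are RSEM, STAR 2.7.3a, Trim Galore 0.6.4, DESeq2 1.30.1 and featureCounts of Subread 2.0.0, with dm6 and BDGP6 as builds, and their order and strand setting are not stated. The deposited expected counts are estimates and need not be whole, the deposited TPM values are per length and keep no depth, and the deposited FPKM values were not used. Positions came from the Ensembl annotation of BDGP6, which held all 54 members.

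Expected counts were rounded and fitted over all 8 libraries with edgeR 4.0.16 (TMM factors, filterByExpr, quasi-likelihood test by line). Each SE was derived as the size of the log2 fold change divided by the root of its F statistic. The test was also run on simulated counts with few genes changed. That setting is unlike this comparison, where 75.2% of tested genes were called, so it does not check the test here. TPM means were not rescaled by TMM. Counting intervals are exact (Clopper-Pearson) at 95% on counts summed over the 4 libraries of a line, so they leave out the spread between flasks. They cover counting error only, and the reads carry no molecular identifiers. In the largest case, 3 counts of a member in a library equalled 0.0605 TPM. Replicates of a line differed beyond sampling noise. The chi-square per degree of freedom was 8.56 to 81.6 between S2-DRSC libraries and 47.2 to 587 between D17-c3 libraries.

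The members, gene lists and binding pairs were chosen with earlier results of these data known. Values per library are given for members at a mean of 1 TPM or more in either line, in each direction for the 2 called members of largest fitted change below that, and for a few others chosen after their values were seen, as were Fas2, the neighbouring genes and the isoform lengths. From other lists, cDIP and in each direction the 2 called genes of largest change are named. Of 25 GPI genes listed 24 matched a symbol. Alternatives were other scalings (median-of-ratios, library totals), filters, DESeq2 1.42.0, limma 3.58.1 on log2(TPM + 1) and log2(TPM + 0.1), the replicate number as a block, and each library left out, for the binding pairs added after seeing the data.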

Additional observations from a re-analysis of the deposited data

Results flagged for a closer look

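Within each line, a library was set apart where its gap to the nearest other library exceeded the share of the range that Dixon's test allows at 95%. Over 58 groups of 4 libraries of the tested members, 3 were set apart, and chance flags about 1 in 20 groups. dpr19 had 0.89 TPM in D17-c3 replicate 2 and 0.41 to 0.44 TPM in the other D17-c3 libraries. dpr17 had 0.23 TPM in D17-c3 replicate 4 and 0.17 to 0.18 TPM in the others. side had 0.01 TPM in S2-DRSC replicate 3 and 0 TPM in the other S2-DRSC libraries, a difference of the last deposited decimal.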

How the results depend on the processing

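The 24 calls of single members held in all alternatives that gave the member a value. Counts moved where low genes were removed or added. With a filter of 1 CPM in 4 libraries, 8 members were higher in D17-c3 (2 Dpr, 3 DIP and 1 Side gene among them) and 0 Beat genes were higher in S2-DRSC. On log2(TPM + 1) and on log2(TPM + 0.1), with genes at 0.5 TPM or more in 4 libraries, 9 members were higher in D17-c3 (3 Dpr, 3 DIP and 1 Side gene among them) and 0 Beat genes in S2-DRSC. These alternatives tested fewer members by construction. With no filter, 23 members were higher in D17-c3 and 5 members, 3 of them Beat genes, in S2-DRSC. DESeq2 also gave 23 toward D17-c3. Members at the level threshold in S2-DRSC numbered 5 at 0.5 TPM and 1 at 2 TPM. Binding pairs with both partners at 0.1 TPM or more, left-out libraries chosen after seeing the data, numbered 3 to 4 in D17-c3 and 1 to 2 in S2-DRSC. DIP-iota, with no call, ranged from -0.36 to a log2 fold change of 0.56 as single libraries were left out, and dpr17, also with no call, from -0.054 to 0.22. The log2 fold change of all tested genes had a median of 0.04, but 0.21 with library totals and 0.20 and 0.22 on TPM. With the replicate number as a block, 21 members were higher in D17-c3 and 3 members in S2-DRSC. The numbers did not pair the libraries: correlations of same-numbered deviations were 0.011, 0.092, -0.023 and 0.045. Precision is limited by counts: 12 members had at most 3 counts in every library.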
